A study of Mus musculus with 9 samples.

Results

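Malat1, Neat1, Miat, Meg3, Rian, Mirg, Peg13, Gas5, Snhg1, and Snhg11 are long non-coding RNAs known from brain, and their levels were followed in 9 mouse brains. They were chosen by gene name, and all 10 were found among the 38621 genes of the expression table and among the 29025 genes tested. Brain RNA came from C57BL/6 mice in 3 groups of 3, and each sample was 1 mouse. The sham mice received saline in the brain according to the paper, whereas the sample labels call them untreated. The ICH mice received their own blood in the brain as a model of intracerebral hemorrhage. The feb mice received the same blood injection after daily gavage of febuxostat, which inhibits xanthine oxidase and so lowers urate. The paper names no vehicle gavage for the sham or ICH mice, and for the RNA samples neither the part of the brain taken nor the interval since the injection is given.

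Long non-coding RNAs act as RNA and mostly stay in the nucleus. Malat1 gathers in nuclear speckles, Neat1 is the scaffold of paraspeckles, and Miat, also called Gomafu, lies in nuclear foci of neurons. Meg3, Rian, and Mirg are read from the maternal chromosome of the imprinted Dlk1-Dio3 locus, where Rian carries C/D box snoRNAs and Mirg a cluster of miRNAs, while Peg13 is a paternally expressed RNA. Gas5, Snhg1, and Snhg11 are host genes whose introns carry snoRNAs, the small RNAs that guide modification of other RNAs.

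Levels are given as RPKM, reads scaled to the exon length of the gene and to the reads of its library, so that genes of different length can be compared. Between 23065757 and 29538009 reads per mouse were counted on genes, and the 10 RNAs together took 1.93% to 3.02% of them. RNA was depleted of rRNA and not selected for poly(A) tails. Replicates were separate libraries by their counts, since the chi-square per gene between mice of a group was 12.7 to 43.7, above the 1 that counting noise gives. In whole tissue, fewer cells of a type and less RNA per cell cannot be told apart. Summed choroid plexus markers (8 genes) were 365 to 1035 RPKM in sham mice, 458 to 967 after ICH, and 30.6 to 88.4 with febuxostat, and 8 of 8 were lower in the feb mice than in either other group, at an unadjusted p under 0.05. Their part in the results below was not tested.

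Malat1 was the most abundant of the 10, with a mean of 2201 RPKM over the 9 mice, and ranked 20 among all genes by mean RPKM. It took 1.52% of the reads of the median mouse. Meg3 followed with a mean of 319.5 RPKM and then Snhg11, with 70.3 to 141.7 RPKM. The lowest mouse for each of these lay above the highest mouse for the next gene. Peg13 (mean 32.0 RPKM), Miat (28.6 RPKM), and Rian (26.7 RPKM) overlapped over the mice, and their order was not separated by the spread. Rian was above Gas5 (20.2 RPKM) in 9 of 9 mice, although their ranges overlapped. Neat1 (8.79 RPKM), Mirg (4.50 RPKM), and Snhg1 (2.80 RPKM) completed the order, and these did not overlap with their neighbours. Snhg1 rested on 159 to 260 reads per mouse, compared with 369218 to 427360 reads for Malat1.

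**Figure D1:**
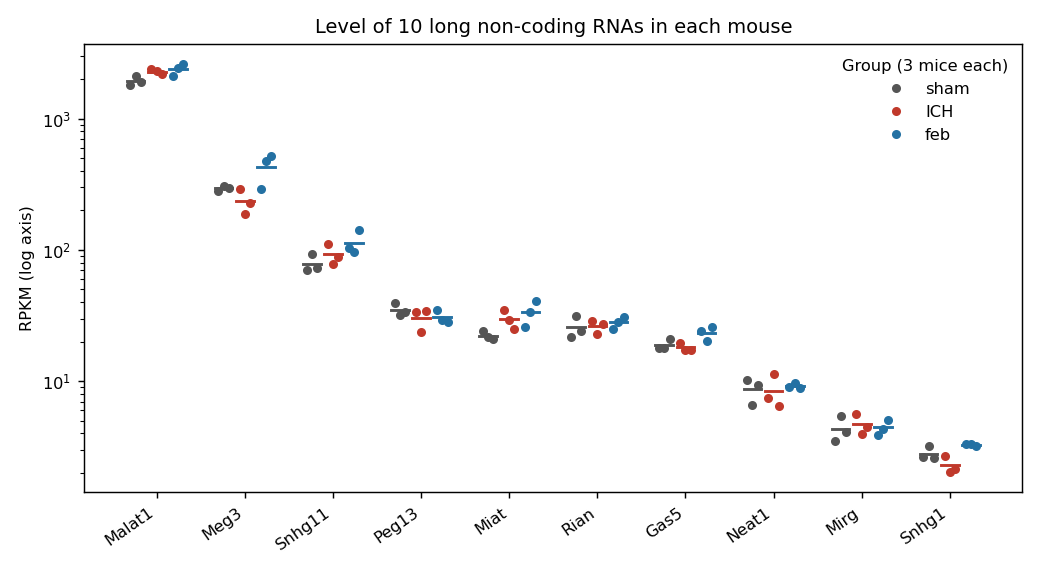
RPKM of the 10 RNAs in each mouse, on a log axis, with sham, ICH, and feb mice as points (3 each) and the group mean as a bar. Malat1 lies at a mean of 2201 RPKM and Snhg1 at 2.80, and the groups of a gene lie close together except for Meg3, where 2 of 3 feb mice lie above the others.

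Differences between groups were tested with limma over all 29025 genes, and none of the 10 RNAs passed an adjusted p of 0.05 in any comparison. The share of all genes that passed was 0.0241% for ICH against sham, 0.00689% for feb against ICH, and 0.00345% for feb against sham. An unadjusted p under 0.05 is therefore used below to count genes, and it is weak evidence for any 1 gene. For ICH against sham, 1 of the 10 RNAs was counted, compared with 12.3% of all genes. It was higher, as were 7.88% of all genes, and 64.1% of all calls were higher, but 36.8% with equal medians, 46.9% with quantile normalization, and 48.8% with voom. For feb against ICH, 3 of 10 were counted, compared with 11.1% of all genes, and all 3 were higher, as were 4.9% of all genes. One of them, Snhg1, was not kept without the reads of the snoRNA genes inside it, which left 2 of 10. For feb against sham, 3 of 10 were counted, compared with 8.54% of all genes, and all 3 were higher, as were 5.63% of all genes, and 66% of all calls were higher, but 41.3% with equal medians, 48.3% with quantile normalization, and 53.6% with voom. The groups did not overlap for 2 of the 10 in the ICH against sham comparison, where 19.4% of all genes did not, for 3 of 10 in feb against ICH (17.2% of all genes), and for 3 of 10 in feb against sham (12.7% of all genes). The median log2 fold change of the 10 was -0.02, 0.16, and 0.26 in these comparisons, and that of all genes was 0.08, -0.01, and 0.05. Equal medians moved the last of these to -0.05. The feb against ICH and feb against sham comparisons share the feb mice, and all comparisons share a group with another.

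**Figure D2:**
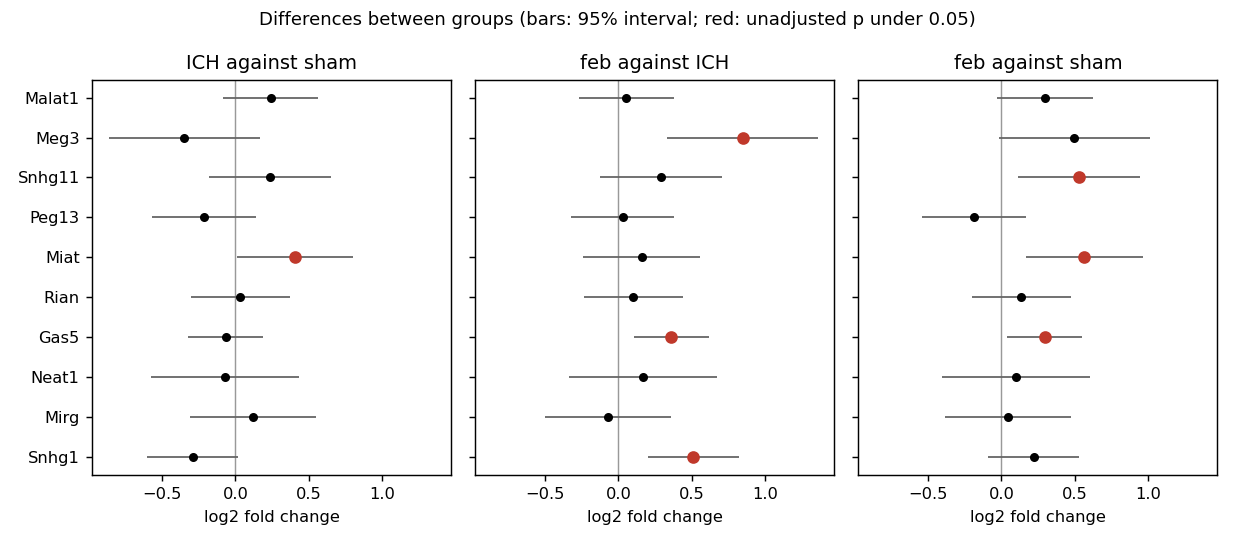
log2 fold change of each RNA on log2(RPKM + 0.1) in the 3 comparisons, with 95% intervals from limma and an unadjusted p under 0.05 in red. Meg3, Gas5, and Snhg1 are red for feb against ICH, Miat for ICH against sham, and Miat, Gas5, and Snhg11 for feb against sham.

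Malat1 (chr19:5795690-5802672, minus strand of GRCm38, a single exon) was 1790, 2129, and 1892 RPKM in the sham mice. It measured 2381, 2295, and 2180 RPKM after ICH and 2124, 2424, and 2593 RPKM with febuxostat. Every ICH mouse was above every sham mouse, while the lowest feb mouse was just below the highest sham mouse. The log2 fold change was 0.24 ± 0.14 (SE, n = 3 mice per group) for ICH against sham, with a 95% interval of -0.08 to 0.57 (adjusted p = 0.491, limma). It was 0.05 ± 0.14 for feb against ICH and 0.30 ± 0.14 for feb against sham (unadjusted p = 0.0697). With quantile normalization the log2 fold change was 0.38 for ICH against sham (limma, unadjusted p = 0.0047) and 0.46 for feb against sham (limma, unadjusted p = 0.00158). With equal medians these values were 0.13 (unadjusted p = 0.45) and 0.18 (unadjusted p = 0.295).

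Inside the Malat1 exon lie 3 further genes of the table. Gm27694, a short RNA gene on the same strand with 6442 to 11287 reads per mouse, was 2560, 4039, and 3099 RPKM in sham mice, 5211, 4990, and 4622 after ICH, and 3935, 2967, and 4603 with febuxostat. Every ICH mouse was above every other mouse, although the highest feb mouse came close to the lowest ICH mouse. Its log2 fold change was 0.64 ± 0.24 (SE) for ICH against sham (unadjusted p = 0.0262, adjusted p = 0.381, limma), and this was larger than the 0.24 of the whole of Malat1, although the difference between them was not tested. Gm37376 and Gm20417 lie within the same exon on the opposite strand. They had 59761 to 68966 and 14396 to 20220 reads per mouse, and as the use of strand is not stated, these reads cannot be told apart from those of Malat1. The Gm27694 window of Malat1 is shown because it had the largest difference among the genes inside Malat1 (chr19:5799000-5799085, minus strand, GENCODE M21 transcript), in lower case with no part marked:

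Gm27694: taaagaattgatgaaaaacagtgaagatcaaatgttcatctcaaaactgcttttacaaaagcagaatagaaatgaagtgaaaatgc

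The genes most like Malat1 over the 9 mice were Gm36952, Gm38148, and Gm38198, with Pearson r of 0.985, 0.982, and 0.978 on log2(RPKM + 0.1). All 3 belong to TEC, the GENCODE class of mostly unspliced transcripts that await experimental proof. The median RPKM of 1732 TEC genes was 0.449, 0.613, and 0.482 in sham mice, 0.751, 0.583, and 0.585 after ICH, and 0.568, 0.654, and 0.802 with febuxostat. The median log2 fold change of the class was 0.24 for ICH against sham and 0.32 for feb against sham, near the 0.24 and 0.30 of Malat1. Of these genes 283 were higher and 7 lower in feb than in sham mice at an unadjusted p under 0.05. Whether the level of unspliced RNA in a sample has a part in the Malat1 values was not tested.

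Neat1 (chr19:5824708-5845478, minus strand, a single exon) was 10.2, 6.63, and 9.32 RPKM in sham mice, 7.46, 11.4, and 6.43 after ICH, and 9.01, 9.73, and 8.90 with febuxostat. The groups overlapped fully in each comparison, and the feb mice varied least. The log2 fold change was -0.07 for ICH against sham with a 95% interval of -0.57 to 0.44, and 0.17 for feb against ICH with an interval of -0.34 to 0.67. Of the reads of Neat1, 20.7% to 28.3% lay in 3 short RNA genes inside it, and Gm28006 near the 5′ end held 640 to 1260 reads per mouse. The log2 ratio of Neat1 to Malat1 within each mouse was -7.80 ± 0.45 (SD, n = 3) in sham mice, -8.11 ± 0.41 after ICH, and -7.99 ± 0.16 with febuxostat, and all groups overlapped (exact permutation test, two-sided, p = 0.5, 0.8, and 0.5 for ICH against sham, feb against ICH, and feb against sham, where 3 against 3 cannot go below 0.1).

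Genes for the protein partners of these RNAs were described by the same counts. Of 14 paraspeckle genes, 0 were counted for ICH against sham or feb against ICH by limma at an unadjusted p under 0.05. For feb against sham, 1 of the 14 was counted, compared with 8.54% of all genes. The groups did not overlap there for 2 of the 14, compared with 12.7% of all genes. The gene counted was Sfpq, a core paraspeckle protein, with 49.3, 52.1, and 48.5 RPKM in sham and 55.8, 61.1, and 63.3 RPKM in feb mice. It was higher in feb without overlap (log2 fold change 0.26 ± 0.08 SE, unadjusted p = 0.00857, limma). Of 14 nuclear speckle genes tested, 1 was higher and 2 were lower for feb against ICH, among them Srrm1, a splicing coactivator (log2 fold change 0.27), and Srsf7, a splicing factor (-0.22). Of 8 genes that flank Malat1 and Neat1, 0 were counted in either direction for ICH against sham and feb against ICH. The share of all genes counted at an unadjusted p under 0.05 was 12.3% for ICH against sham and 11.1% for feb against ICH.

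Miat (chr5:112213228-112229395, minus strand) was 24.2, 21.8, and 20.8 RPKM in the sham mice. After ICH it was 34.9, 29.5, and 25.0 RPKM, and with febuxostat 26.1, 33.5, and 41.1 RPKM. All ICH mice and all feb mice were above all sham mice, and the ICH and feb mice overlapped. On the log2 scale the change was 0.41 ± 0.17 (SE) for ICH against sham (unadjusted p = 0.0448, adjusted p = 0.402, limma) and 0.57 ± 0.17 for feb against sham (unadjusted p = 0.0105, adjusted p = 0.565). For feb against ICH it was 0.16 with a 95% interval of -0.24 to 0.56. The ICH against sham difference lost its unadjusted p under 0.05 when sham 2, sham 3, ICH 1, ICH 2, or feb 2 was left out, with fold changes of 0.39, 0.36, 0.29, 0.41, and 0.41 on the log2 scale. It was also lost with equal medians (0.30, unadjusted p = 0.0704), quantile normalization, the total without 7SL genes, the fit without trend, and the replicate block, so that it was kept in 11 of 21 alternatives (limma). The feb against sham difference held without any 1 mouse, between 0.41 and 0.74.

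Gm26953, a lincRNA on the opposite strand that overlaps Miat exons, had 1210 to 1900 reads per mouse. It was 11.4, 10.2, and 10.1 RPKM in sham mice, 15.4, 12.6, and 10.96 after ICH, and 11.7, 15.5, and 18.2 with febuxostat, with a log2 fold change of 0.49 for feb against sham (unadjusted p = 0.0201, limma). As the use of strand is not stated, reads in the shared stretch cannot be assigned to either gene. The genes most like Miat over the mice were Tnfrsf18 (r = 0.952), Zmynd8 (r = 0.948), and the pseudogene Gm13835 (r = 0.941). Of 15 neuron markers, 4 were higher and 1 was lower for ICH against sham, compared with 12.3% of all genes counted and 7.88% higher. Of the 15, 8 had a fold change above 0, and the median log2 fold change was 0.0036. Those counted as higher include Slc17a7, a vesicular glutamate transporter (1.54 on the log2 scale), and Camk2a, a synaptic kinase (0.94). The summed level of all 15 was 1326 to 1783 RPKM in sham mice, 1309 to 1434 after ICH, and 1278 to 1562 with febuxostat. The part of neuron content in the Miat values was not tested.

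Meg3 (chr12:109541001-109571726, plus strand) had the largest fold change of the 10 RNAs. It was 283, 307, and 294 RPKM in the sham mice. After ICH it was 289, 188, and 227 RPKM, and with febuxostat 292, 473, and 522 RPKM. The lowest feb mouse was just above the highest ICH mouse and within the sham range, while the other two feb mice were above every other mouse. The log2 fold change for feb against ICH was 0.85 ± 0.23 (SE, n = 3 mice per group), with a 95% interval of 0.33 to 1.36 (unadjusted p = 0.005, adjusted p = 0.291, limma). It kept an unadjusted p under 0.05 in all 21 alternatives, 9 of which leave out a mouse, with values from 0.68 to 1.10. For ICH against sham it was -0.35 with an interval of -0.87 to 0.17, and for feb against sham 0.50 with an interval of -0.02 to 1.01.

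Rian and Mirg, which lie downstream of Meg3 on the same strand and are often described as parts of one long transcription unit with it, showed no such separation. Rian (chr12:109603940-109661716) was 21.8, 31.1, and 24.3 RPKM in sham mice, 28.7, 22.7, and 27.1 after ICH, and 25.2, 28.0, and 31.0 with febuxostat. Mirg (chr12:109729764-109749460) was 3.51, 5.43, and 4.09 RPKM in sham mice, 5.62, 3.98, and 4.49 after ICH, and 3.93, 4.33, and 5.07 with febuxostat. All groups overlapped for both genes. For feb against ICH the log2 fold change was 0.10 for Rian, with a 95% interval of -0.24 to 0.44, and -0.07 for Mirg, with an interval of -0.50 to 0.36.

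The log2 ratio of Rian to Meg3 within each mouse was -3.53 ± 0.20 (SD, n = 3) in sham mice, -3.15 ± 0.16 after ICH, and -3.89 ± 0.31 with febuxostat. It was lower in every feb mouse than in every ICH mouse, by 0.75 on the log2 scale, and the exact permutation test gave p = 0.1 (two-sided), the smallest that 3 against 3 can give. The ratio of Mirg to Meg3 was -6.07 ± 0.25 in sham mice, -5.60 ± 0.07 after ICH, and -6.53 ± 0.30 with febuxostat. It did not overlap between feb and ICH mice (a difference of -0.92, exact permutation p = 0.1) nor between ICH and sham mice (0.47, exact permutation p = 0.1). Both RNAs of a ratio come from the same library, so depth and scaling cancel in it. Over the 12 comparisons of 4 ratios, the lowest Benjamini-Hochberg adjusted exact permutation p was 0.4, and the ratio of Gas5 to Snhg1 overlapped in every comparison.

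The Meg3 promoter is printed because Meg3 had the largest difference. Capitals mark the letters TATA, the core of a promoter element that lies shortly before the start of some genes. The window of 300 bases reaches from before to just after the first of the RefSeq starts (chr12:109540746-109541045, plus strand, GRCm38.p6):

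Meg3 promoter: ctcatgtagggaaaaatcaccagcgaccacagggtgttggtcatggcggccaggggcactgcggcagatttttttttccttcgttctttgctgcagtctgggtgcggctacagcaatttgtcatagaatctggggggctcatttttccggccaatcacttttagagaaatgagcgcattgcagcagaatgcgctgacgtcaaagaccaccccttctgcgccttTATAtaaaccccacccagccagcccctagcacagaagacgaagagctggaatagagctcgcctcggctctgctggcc

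Of the 10 RNAs, 8 had at least 1 promoter in RefSeq, and these were searched for TATA, which reads the same on both strands, from base -35 to base -20 before the start. It was found for Meg3, Gas5, and Snhg1, in 1 of 2 windows of Meg3, in 1 of 2 of Gas5, and in the only window of Snhg1, and in 4.75% of 32851 promoters of all genes. The second start of Meg3 did not hold it. A match is a description of the letters and not a binding site.

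Small RNA genes inside Meg3 and Rian were counted as separate genes. Mir770 lies in the last exon of the longest Meg3 transcript and in an intron of the others. It was 1134, 1266, and 1122 RPKM in sham mice, 1095, 833, and 1042 after ICH, and 1226, 1693, and 2231 with febuxostat. Each ICH mouse was below each sham and feb mouse, as the lowest values of the other groups were 1122 and 1226. Mir770 had a log2 fold change of 0.76 ± 0.22 for feb against ICH (unadjusted p = 0.007, limma), near that of Meg3. Mir1906-1, in an exon near the 5′ end, was 299, 483, and 305 RPKM in sham mice, 541, 401, and 411 after ICH, and 444, 420, and 746 with febuxostat, which overlapped. Its log2 fold change for feb against ICH was 0.21. Feb 2 had a Meg3 level of 473 RPKM and a Mir1906-1 level of 420 RPKM, within the range of the ICH mice. The libraries hold fragments longer than a mature miRNA of 22 bases, so these reads and those of Meg3 cannot be told apart. The mature miRNAs of the 2 genes are printed with the seed (bases 2 to 8) in capitals, and none shares its seed with another:

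miR-770-5p: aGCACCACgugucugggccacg

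miR-770-3p: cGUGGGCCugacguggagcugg

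miR-1906: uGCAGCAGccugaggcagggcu

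Of the 13 snoRNA genes inside Rian, 2 were higher and 1 was lower in ICH than in sham mice at an unadjusted p under 0.05, and 1 was higher and 0 were lower in feb than in ICH mice. Of all genes, 12.3% were counted for ICH against sham and 11.1% for feb against ICH. In Rian, 7 of the 13 lie in exons and the rest in introns. Their reads cannot be told apart from reads of spliced or unspliced Rian RNA. AF357425 was 316, 274, and 317 RPKM in sham mice, 212, 132, and 191 after ICH, and 251.5, 505, and 298 with febuxostat. Every ICH mouse was below every sham mouse and every feb mouse. AF357425 had a log2 fold change of -0.79 ± 0.26 (SE) for ICH against sham (unadjusted p = 0.0161) and 0.94 ± 0.26 for feb against ICH (unadjusted p = 0.00646, limma). Gm24895 held more reads than any other snoRNA gene inside Rian, 918 to 1260 per mouse, and was 430, 651, and 530 RPKM in sham mice, 575, 480, and 539 after ICH, and 489, 558, and 538 with febuxostat, with log2 fold changes of 0.00 and -0.01. Both are C/D box snoRNAs of similar length inside the same host, and their box letters, TGATGA and CTGA, are in capitals:

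AF357425: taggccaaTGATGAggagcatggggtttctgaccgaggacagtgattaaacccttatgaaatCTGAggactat

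Gm24895: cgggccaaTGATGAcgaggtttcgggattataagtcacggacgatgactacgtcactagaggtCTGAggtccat

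AF357425 lies at chr12:109636012-109636084 and Gm24895 at chr12:109646129-109646202, both on the plus strand of GRCm38. Of 454 GENCODE snoRNAs of 60 to 100 bases, 64.8% held TGATGA in the first 20 bases and CTGA in the last 20. Gm24564, another snoRNA of Rian, was 33.9, 79.1, and 42.2 RPKM in sham and 85.0, 86.2, and 108 in ICH mice. Its log2 fold change for ICH against sham was 0.94 (unadjusted p = 0.0164, adjusted p = 0.356, limma). That of AF357425 was -0.79 (adjusted p = 0.353, limma), opposite in sign. Both genes were picked after their values were seen. Whether members of this cluster differ in both directions was not tested. Of 15 miRNA genes inside Mirg, with 1 to 54 reads per mouse, 0 were counted for ICH against sham and 3 were lower for feb against ICH (Mir453, Mir154, and Gm24321), and 2 of these rested on at most 18 reads. The share of all genes counted in these comparisons was 12.3% and 11.1%.

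**Figure D3:**
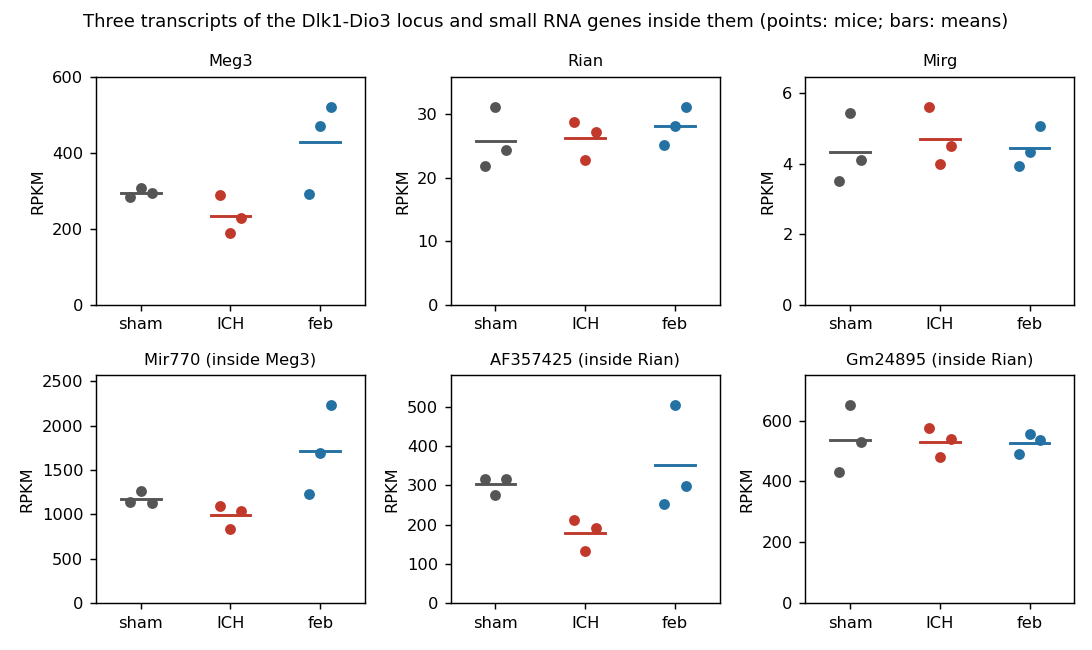
RPKM of Meg3, Rian, and Mirg (upper panels) and of Mir770 inside Meg3 and the snoRNA genes AF357425 and Gm24895 inside Rian (lower panels) in each mouse, with group means as bars and axes from 0. The feb mice are above the ICH mice for Meg3, Mir770, and AF357425 and overlap with them for Rian, Mirg, and Gm24895.

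Protein-coding genes at the locus and its edges were counted in the same way. Of 8 genes, 1 was higher for ICH against sham, 1 was lower for feb against ICH, and 1 was higher for feb against sham. Of all genes, 12.3%, 11.1%, and 8.54% were counted in these comparisons. The gene counted for ICH against sham and that counted for feb against ICH are both Ppp2r5c, a phosphatase subunit. Its log2 fold changes were 0.17 and -0.23, opposite in sign to those of Meg3. The genes most like Meg3 over the 9 mice were the lincRNA A230006K03Rik (r = 0.987), 6430590A07Rik (r = 0.978), and Abhd14b (r = 0.973). Of 22 other imprinted genes of brain, 3 were higher (Plagl1, Zrsr1, and Peg3) and 1 was lower (Igf2) in feb than in ICH mice by limma at an unadjusted p under 0.05, compared with 11.1% of all genes, and 0 passed an adjusted p of 0.05. A fold change above 0 was seen for 18 of 22, compared with 47.8% of all genes, and their median log2 fold change was 0.18. Zrsr1, a paternally expressed splicing factor gene, was 51.9, 38.9, and 48.8 RPKM in sham mice, 37.6, 32.2, and 38.7 after ICH, and 51.5, 45.6, and 50.1 with febuxostat. Its log2 fold change was -0.36 for ICH against sham and 0.44 for feb against ICH (unadjusted p = 0.0179 and 0.00598, limma). Igf2, a growth factor made by choroid plexus and meninges, had a log2 fold change of -1.12 for feb against ICH.

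Peg13 (chr15:72805600-72810324, minus strand) lies in an intron of Trappc9. It was 39.1, 31.9, and 33.7 RPKM in sham mice, 33.4, 23.6, and 34.1 after ICH, and 34.7, 29.4, and 28.1 with febuxostat. The groups overlapped in all comparisons, and the log2 fold changes were -0.21 for ICH against sham and 0.03 for feb against ICH, with 95% intervals of -0.57 to 0.14 and -0.33 to 0.38. Trappc9, a trafficking complex subunit, was 11.7, 9.67, and 10.1 RPKM in sham mice, 9.46, 8.44, and 9.13 after ICH, and 10.7, 10.1, and 11.1 with febuxostat, with a log2 fold change of 0.24 for feb against ICH (unadjusted p = 0.0334, limma). Of 6 genes around Peg13, 1 was higher for ICH against sham, and 1 was higher (Trappc9) and 1 lower for feb against ICH. Of all genes, 12.3% and 11.1% were counted in these comparisons. The groups did not overlap for 2 of the 6 in each, compared with 19.4% and 17.2% of all genes. Ptk2, a focal adhesion kinase, had log2 fold changes of 0.29 for ICH against sham and -0.23 for feb against ICH, without overlap. The genes most like Peg13 over the mice were Gja1, the gap junction gene of astrocytes (r = 0.974), Ahcyl1 (r = 0.959), and Phyh (r = 0.948).

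Gas5 (chr1:161034422-161038539, plus strand) was 18.0, 18.1, and 21.03 RPKM in sham mice, 19.6, 17.4, and 17.4 after ICH, and 24.2, 20.2, and 25.9 with febuxostat. Each feb mouse was above each ICH mouse, and 1 feb mouse was within the sham range. It differed by 0.36 ± 0.11 (SE, log2 scale) for feb against ICH (unadjusted p = 0.0109, adjusted p = 0.328, limma), with a 95% interval of 0.11 to 0.62. It kept an unadjusted p under 0.05 in all 21 alternatives, from 0.29 to 0.46. For feb against sham it was 0.30 (unadjusted p = 0.0278), which was lost without sham 1, sham 2, feb 1, or feb 3, with values of 0.26, 0.26, 0.27, and 0.22. It was also lost with equal medians (0.18, unadjusted p = 0.148) and without trend (unadjusted p = 0.0565). For ICH against sham it was -0.07 with an interval of -0.32 to 0.19.

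Snhg1 (chr19:8723475-8726443, plus strand) was 2.63, 3.196, and 2.61 RPKM in sham mice, 2.68, 2.04, and 2.15 after ICH, and 3.31, 3.31, and 3.23 with febuxostat. The feb mice were above all others, and their SD was 0.0469 RPKM. It differed by 0.51 ± 0.14 (SE, log2 scale) for feb against ICH (unadjusted p = 0.00496, adjusted p = 0.291, limma) and -0.29 for ICH against sham (unadjusted p = 0.0633). The annotated exons of Snhg1 cover its whole span of 2969 bases and leave no intron, so its RPKM cannot tell spliced from unspliced RNA. All 8 snoRNA genes inside Snhg1 therefore lie within annotated exon. They took 42.8% to 70.6% of its reads, of which Snord22 had 35 to 125 reads per mouse. The annotated exons of Gas5 cover 3760 of 4118 bases. The 9 snoRNA genes inside Gas5 took 12% to 20% of the reads of Gas5.

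When the reads and bases of these snoRNA genes were removed from their host, a check added after the data were seen, Snhg1 was 1.154, 1.58, and 1.152 RPKM in sham mice, 1.53, 1.47, and 1.27 after ICH, and 2.09, 1.23, and 1.92 with febuxostat. Feb 2 was then below every ICH mouse, and the log2 fold change for feb against ICH was 0.25 (unadjusted p = 0.289, limma), so the Snhg1 difference was not kept. That for ICH against sham turned from -0.29 to 0.14. Gas5 without the reads of its snoRNA genes was 19.3, 18.1, and 22.3 RPKM in sham mice, 19.1, 17.02, and 16.95 after ICH, and 25.2, 20.9, and 26.6 with febuxostat, and the log2 fold change for feb against ICH was 0.45 (unadjusted p = 0.00414). This removal takes a read at a snoRNA as counted for both genes. In the whole table, the inner gene of 51 pairs on the same strand, with at least 100 reads and at least 10 bases of host exon on each side, had more reads than the outer gene in 0 pairs. Among 43 such pairs on opposite strands it had more in 5, so that there a read was not always counted for both genes. For Snhg20, another snoRNA host, the 2 genes inside its exons together had 130% to 156% of its reads. There the removal could not be made.

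**Figure D4:**
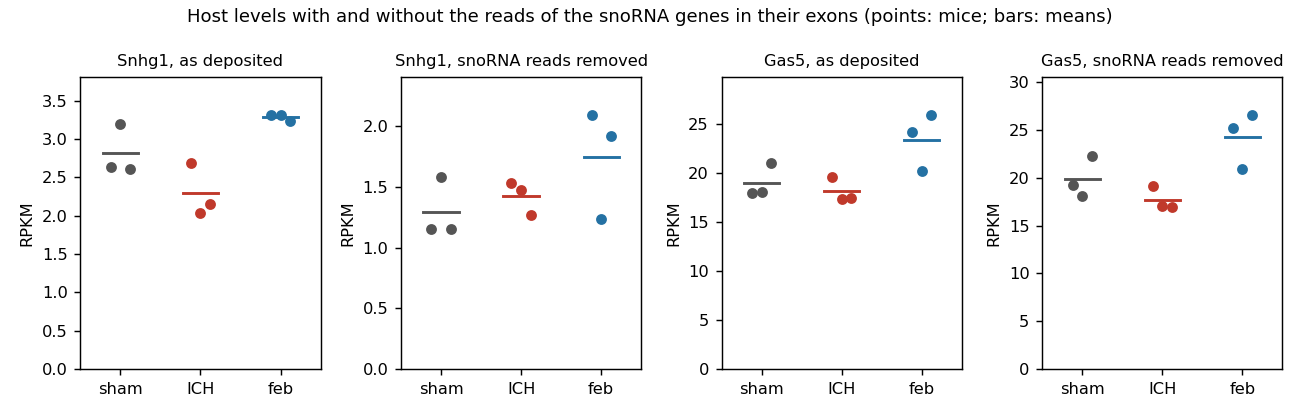
RPKM of Snhg1 and Gas5 in each mouse as deposited and after removing the reads and bases of the snoRNA genes in their exons, with group means as bars and axes from 0. Snhg1 loses the separation of the feb mice, with feb 2 at 1.23 RPKM, and Gas5 keeps it.

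The snoRNA genes were also counted as separate genes. Those inside Gas5 and Snhg1 lie within annotated exon of the host. Their reads therefore cannot be told apart from reads of spliced or unspliced host RNA. Inside Gas5, 4 of 9 were higher and 0 were lower in ICH than in sham mice at an unadjusted p under 0.05, compared with 7.88% of all genes higher. Of these, Snord78 rested on 3 to 13 reads per mouse and Mir5117 on 13 to 22. The median log2 fold change of the 9 was 0.54, while Gas5 was at -0.07. Of 706 snoRNA genes tested, 50 were higher and 57 lower for ICH against sham. For feb against ICH, 66 were higher and 23 lower, with a median log2 fold change of 0.17. Gm22489, with 86 to 158 reads per mouse, was 49.1, 57.4, and 59.1 RPKM in sham mice, 104, 73.6, and 80.1 after ICH, and 69.5, 54.9, and 88.1 with febuxostat, and every ICH mouse was above every sham mouse. Its log2 fold change for ICH against sham was 0.63 (unadjusted p = 0.00897, adjusted p = 0.345, limma). Inside Snhg1, Snord22 was 30.4, 29.2, and 31.3 RPKM in sham mice, 21.4, 10.6, and 15.8 after ICH, and 27.0, 39.3, and 20.6 with febuxostat. It was lower in every ICH mouse than in every sham mouse, with log2 fold changes of -0.98 for ICH against sham and 0.87 for feb against ICH (unadjusted p = 0.00683 and 0.0129, limma). The sequence of Snord22 is printed because its reads were the largest part of those of Snhg1 (chr19:8725866-8725991, plus strand, CTGA in capitals, and no TGATGA in it):

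Snord22: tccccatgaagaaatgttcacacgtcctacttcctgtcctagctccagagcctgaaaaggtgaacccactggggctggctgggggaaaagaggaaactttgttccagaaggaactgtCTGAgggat

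Gas5 and Snhg1 are usually placed among the genes whose transcripts start with a run of pyrimidines, a trait shared with ribosomal protein genes. Their promoters are printed with TATA in the window and CT at the start in capitals, for Gas5 at the second of its RefSeq starts (chr1:161034916-161035215) and for Snhg1 (chr19:8723237-8723536), both on the plus strand:

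Gas5 promoter: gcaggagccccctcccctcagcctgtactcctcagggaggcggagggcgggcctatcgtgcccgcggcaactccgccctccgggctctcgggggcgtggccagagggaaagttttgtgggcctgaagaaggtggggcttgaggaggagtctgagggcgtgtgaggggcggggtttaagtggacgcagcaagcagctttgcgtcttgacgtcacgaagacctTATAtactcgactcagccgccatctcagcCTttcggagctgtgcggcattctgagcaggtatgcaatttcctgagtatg

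Snhg1 promoter: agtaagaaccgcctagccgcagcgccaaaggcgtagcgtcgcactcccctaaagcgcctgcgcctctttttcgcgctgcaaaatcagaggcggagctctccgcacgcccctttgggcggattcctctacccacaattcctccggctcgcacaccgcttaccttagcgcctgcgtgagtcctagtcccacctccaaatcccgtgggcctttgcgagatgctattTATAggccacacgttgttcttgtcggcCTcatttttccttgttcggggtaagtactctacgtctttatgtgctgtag

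CT at the first base was held by 5.41% of the 32851 promoters on the transcribed strand, and Mirg also held it. The first RefSeq start of Gas5 did not hold it. Up to the first purine, the printed starts read CTTTC for Gas5 and only CTC for Snhg1. Of 20 other snoRNA host genes with a promoter, 4 held TATA in the window and 2 started with CT.

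Snhg11 (chr2:158375638-158386145, plus strand), typed as protein-coding in GENCODE, was 70.3, 92.6, and 72.3 RPKM in sham mice, 110.5, 78.7, and 88.7 after ICH, and 103.6, 96.6, and 141.7 with febuxostat. Each feb mouse was above each sham mouse, and the ICH mice overlapped with both groups. Its difference was 0.53 ± 0.18 (SE, log2 scale) for feb against sham (unadjusted p = 0.0186, adjusted p = 0.565, limma), and it lost an unadjusted p under 0.05 without sham 1, sham 3, or feb 3, with values of 0.46, 0.48, and 0.36. The genes most like Snhg11 over the mice were Paxbp1 (r = 0.991), Rspry1 (r = 0.986), and RP23-23P9.4 (r = 0.985). For Gas5 they were Rpap2 (r = 0.979), Chd2 (r = 0.975), and Stx3 (r = 0.974), and for Snhg1 Slc29a2 (r = 0.935), the snoRNA Gm24966 (r = 0.931), and Gm22701 (r = 0.927). For Rian the likeness was highest with Mir1193 of the same locus (r = 0.957), and for Mirg with Rnf121 (r = 0.967). All of these r are over 9 mice that share their libraries and groups, and they are descriptions without a test.

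The other snoRNA host genes were compared between feb and ICH mice in the same way. Of 22 tested, 5 were higher (Snhg7, Snhg8, Snhg12, Epb41l4aos, and Ncl) and 0 were lower by limma at an unadjusted p under 0.05, compared with 4.9% of all genes counted as higher, and 18 of 22 had a fold change above 0. The count was 1 without ICH 2, 2 without ICH 3, and 2 without feb 1. When the reads of genes in their exons were removed, a check added after the data were seen, 20 of the 22 could be fitted, 4 of these were higher and 0 lower by limma, and their median log2 fold change was 0.19. Snhg7 and Snhg20 could not be fitted, and for Snhg20 the reads to be removed were 130% to 156% of its own. Snhg12 was 5.31, 5.51, and 5.32 RPKM in sham mice, 5.07, 5.43, and 4.49 after ICH, and 7.34, 6.14, and 8.05 with febuxostat, with every feb mouse above every other mouse (log2 fold change 0.51 ± 0.12 for feb against ICH, unadjusted p = 0.00222). Snhg7 was 6.58, 6.61, and 7.17 RPKM in sham mice, 5.29, 4.38, and 4.395 after ICH, and 5.44, 5.98, and 8.42 with febuxostat, so each ICH mouse was below every sham and feb mouse. Snhg7 rested on 16 to 28 reads per mouse, of which 81.2% to 100% lay in the snoRNA gene Snora43, so that it could not be fitted without them. Its log2 fold change was -0.53 for ICH against sham and 0.47 for feb against ICH. For ICH against sham, 1 of the 22 was higher (Gnl3, a nucleolar GTPase) and 4 were lower. Of all genes, 12.3% were counted in this comparison and 7.88% were higher. The 4 lower genes were Snhg7, Ncl, which encodes nucleolin, and Rpl13a and Rpl23a, which encode ribosomal proteins. These 22 hosts had a median log2 fold change of 0.26 for feb against ICH, beside 0.36 for Gas5 and 0.29 for Snhg11.

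**Figure D5:**
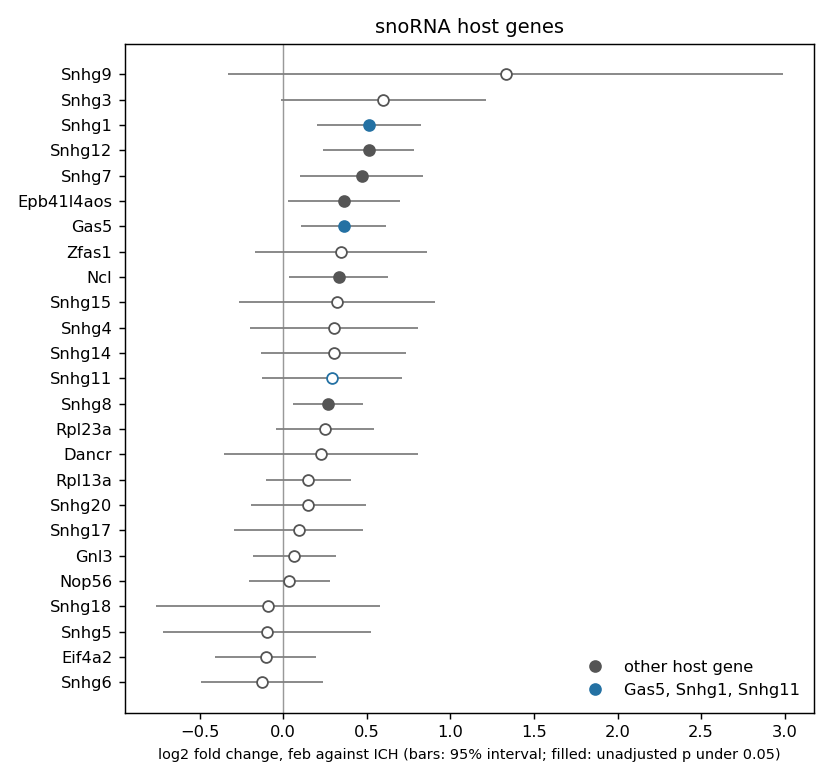
log2 fold change for feb against ICH, with 95% intervals from limma, of 22 other snoRNA host genes and of Gas5, Snhg1, and Snhg11 (blue), with filled points at an unadjusted p under 0.05. The values lie between -0.13 (Snhg6) and 1.33 (Snhg9, which rested on at most 5 reads per mouse), and 18 of the 22 lie above 0.

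Among 21 other brain lncRNAs tested, 3 were higher and 0 were lower for ICH against sham, and 0 were higher and 2 were lower for feb against ICH by limma, compared with 12.3% and 11.1% of all genes. 1700020I14Rik was 28.0, 23.9, and 23.5 RPKM in sham mice, 36.1, 35.6, and 29.0 after ICH, and 23.1, 24.5, and 19.2 with febuxostat. Its log2 fold change was 0.41 for ICH against sham and -0.59 for feb against ICH (unadjusted p = 0.0105 and 0.00133, limma). Of 12 p53 target genes tested, listed because Meg3 is known to act on p53, 1 was higher for ICH against sham and 0 were counted for feb against ICH. That gene was Plk2, a stress kinase also induced by neuronal activity, with a log2 fold change of 1.04 (unadjusted p = 0.00634, limma). For feb against sham, 2 of the 12 were higher (Sesn1 and Cdkn1a) and 0 were lower, compared with 8.54% of all genes counted and 5.63% higher.

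Cell type markers differed between feb and ICH mice beside Meg3 and Gas5. Of 10 microglia markers, 6 were lower and 0 were higher, with a summed level of 83.3 to 167 RPKM in ICH and 66.2 to 104 in feb mice. Of 10 endothelium markers, 4 were lower (45.2 to 52.6 RPKM summed in ICH and 36.3 to 45.3 in feb mice). Of 5 blood markers tested, 4 were lower, and the blood markers summed to 26.7 to 124 RPKM in ICH and 17.1 to 21.6 in feb mice. Of 10 oligodendrocyte markers 0 were counted, and of 15 neuron markers 1 was lower. Of 10 astrocyte markers 1 was lower, and of 3 leukocyte markers tested 0 were counted. Of all genes, 11.1% were counted at the same unadjusted p under 0.05, and 4.9% were counted as higher. None of the markers was at 0 in all mice. Their part in the Meg3 and Gas5 values was not tested.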

How the data were processed

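Brain RNA of 9 mice (3 sham, 3 ICH, 3 feb) was measured by stranded RNA-seq after rRNA depletion. The authors trimmed reads (Trimmomatic 0.36), collapsed them by UMI, aligned them to GRCm38, counted exon reads with featureCounts (Subread 1.5.1), and deposited RPKM values. Whether strand was used, how reads on overlapping genes were assigned, and the annotation release were not given in the sources used here. Reads recovered from the RPKM steps were whole for 100% of values (within 0.05 of a whole number).

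Genes that reached 0.1 RPKM in 3 or more of the 9 samples were tested with limma 3.58.1 (R 4.3.3, lmFit and eBayes with trend) on log2(RPKM + 0.1), all samples in 1 fit without block, with Benjamini-Hochberg adjustment over the 29025 genes. Fold changes on this scale understate those of low genes. Voom on the recovered reads was an alternative only. Ratios within mice were compared with exact permutation tests. Members, lists, and tests were chosen with earlier results of these data known. Named genes were the 10 RNAs, up to 3 of each list with the lowest p among those without overlap and up to 3 with the highest RPKM, and the 3 genes most like each RNA (Pearson r, mean RPKM of at least 1). Genes inside the 10 RNAs, and list genes named beyond this rule, were chosen after their values were seen. Positions and types came from GENCODE M21 by name (36782 of 38621 matched), and promoters and miRNAs from RefSeq (GRCm38.p6). The test was tried on simulated reads first. Replicate numbers are shared by the groups in titles only. The limma p-values set a group difference against the spread between mice, pooled over the 3 groups and moderated over all genes. With n = 3 per group, precision is limited.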

Additional observations from a re-analysis of the deposited data

How the results depend on the processing

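Settings changed in turn were the pseudocount (1 or 0.01), the filter (none, or 1 RPKM), the scaling (equal medians, quantiles, a total without the 6 genes of or inside the 7SL RNA), a fit of the 2 groups alone, eBayes without trend, the replicate block, voom on recovered reads, each mouse left out, and, added after the data were seen, the removal of reads of genes inside the RNAs and the other host genes and each mouse left out for the other host genes. The log2 fold changes of Meg3 and Gas5 for feb against ICH and of Miat for feb against sham kept their direction and an unadjusted p under 0.05 in all of them.

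For ICH against sham, the 1 RNA counted (Miat) became 2 with equal medians (Meg3 and Snhg1, without Miat), quantile normalization (Malat1 and Snhg1, without Miat), or voom, and 0 without trend or with the replicate block, and 0 to 1 with a mouse left out (0 without sham 2, sham 3, ICH 2, or feb 2). For feb against sham, the 3 RNAs became 5 with quantile normalization or voom, and 1 to 4 with a mouse left out (1 without sham 1 or feb 3). The count of other host genes higher for feb against ICH was 1 to 7 with a mouse left out. The replicate block moved no other count of the RNAs. Replicate numbers did not pair the samples (correlations of same-numbered mice from -0.127 to 0.0194). The cause of these moves was not tested.

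Small differences changed sign. With equal medians, Rian was -0.081 for ICH against sham, and Neat1 -0.015 and Mirg -0.068 for feb against sham. Mirg was also -0.0073 with quantile normalization and -0.0072 with voom, where Rian was -0.036 for ICH against sham. Without the reads of its snoRNA genes, Snhg1 was 0.14 for ICH against sham. With a mouse left out, values for ICH against sham ran from -0.30 to 0.10 for Neat1, -0.079 to 0.18 for Rian, -0.019 to 0.29 for Mirg, and -0.12 to 0.0077 for Gas5. For feb against ICH they ran from -0.0092 to 0.13 for Malat1, -0.0030 to 0.40 for Neat1, -0.18 to 0.062 for Mirg, and -0.14 to 0.12 for Peg13, and for feb against sham from -0.084 to 0.23 for Neat1 and -0.091 to 0.22 for Mirg. The ratio of Gas5 to Snhg1 ran from -0.051 to 0.20 for feb against sham, and that of Neat1 to Malat1 from -0.024 to 0.35 for feb against ICH. Snhg1 and the snoRNA genes rest on few reads, and 3 mice per group limit the precision of every value.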
